A study of Homo sapiens with 19 samples.

Results

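The coagulation and fibrinolysis genes described here are 37 of the 34825 gene symbols measured in HepG2 cells, and they were chosen by symbol from a fixed list of clotting factors, their inhibitors, the plasminogen system and related liver proteases. The measurement was mRNA-seq after siRNA knockdown of INO80, the ATPase of the INO80 chromatin remodelling complex, or of MCRS1, a subunit of that complex, and after inhibition of the histone methyltransferase EZH2 with EPZ-6438. In a first experiment of 9 libraries, siRNA was used at 50 nM: the control NTG, siINO80#1 or siINO80#2, the latter being 2 different siRNAs that target INO80, with 3 libraries in each group, lettered A to C. In a second experiment of 10 libraries, cells were kept in 1 μM EPZ-6438 or in DMSO, starting 3 days ahead of transfection, and then received NTG or siMCRS1, which targets MCRS1, at the same 50 nM; there were 2 libraries of DMSO with NTG (numbered 1 and 3), 3 of DMSO with siMCRS1, 3 of EPZ-6438 with NTG and 2 of EPZ-6438 with siMCRS1 (lettered A and B). All cells were harvested 72 h after transfection, and every control carried the NTG siRNA and, in the second experiment, DMSO or the drug as well. HepG2 is a human liver cancer cell line, so all groups are models in 1 line, and nothing in the labels says whether replicate libraries came from separate cultures, so the p-values measure only the spread between these libraries, which may be technical.

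Blood clots when tissue factor on exposed cells binds factor VII and a chain of proteases ends in thrombin, which turns fibrinogen into fibrin. Serpins such as antithrombin and the protein C pathway hold this chain in check, and plasmin, made from plasminogen by the activators tPA and uPA, dissolves the fibrin again. Hepatocytes are the main source of most of these plasma proteins, and several of the proteases need a vitamin K-dependent carboxylation in the liver cell before they are secreted.

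The files held between 17093574 and 25369547 reads per library in the INO80 experiment and between 26038505 and 47397233 in the siMCRS1 experiment, given as counts divided by 1 size factor per library and called normalized counts here. The floor used here, 3 reads, equals 2.30 to 3.58 normalized counts in INO80 libraries and 2.13 to 4.30 in those with siMCRS1 or its controls, and covers counting error only. The INO80 level fell with siINO80#1 and siINO80#2 (log2 fold change -1.05 and -1.46), MCRS1 fell with siMCRS1 (-3.66 in either treatment). INO80 was also called lower after siMCRS1 (DMSO -0.27, EPZ-6438 -0.35). The DMSO call was lost in 10 alternatives, such as without DMSO NTG 1 (-0.20, adjusted p = 0.243) or DMSO siMCRS1 2 (-0.22, adjusted p = 0.125). The EPZ-6438 call was lost without EPZ-6438 siMCRS1 B (-0.32, adjusted p = 0.0813). All 8 hepatocyte markers, ALB, APOB and HNF4A among them, had a mean of at least 10 normalized counts in every group. Of the 4 platelet markers, PPBP, PF4 and GP9 were at 0 in every library. The other, ITGA2B, was detected at low counts. In DMSO its mean was 2.39 with NTG and 7.14 with siMCRS1, and no library was above 11.5. The sum of 4 fibroblast markers was 255.6 to 281 normalized counts in NTG, 461 to 485 in siINO80#1 and 286 to 311 in siINO80#2, and 194 to 362 in the NTG libraries of the second experiment against 551 to 907 with siMCRS1. All 4 (COL1A1, COL1A2, PDGFRB and DCN) averaged at least 10 over the libraries of the first experiment and 2 of the 4 over those of the second. All libraries came from the HepG2 line, and the markers did not move alike. In DMSO the means of COL1A1 (247 with NTG, 623 with siMCRS1), COL1A2 and PDGFRB rose with siMCRS1, and that of DCN fell (7.64 to 3.86). What these sums reflect was not tested. In the first experiment the sum of 4 endothelial markers was 207 to 244 in NTG, 243 to 288 in siINO80#1 and 280.3 to 341 in siINO80#2. Only 1 of these 4 averaged at least 10 there. In the second experiment the endothelial sums overlapped (DMSO: 194 to 219 with NTG, 176 to 248 with siMCRS1; EPZ-6438: 196 to 282 and 200 to 214). The sum of 4 leukocyte markers was 617 to 868 with siMCRS1 against 933 to 1634 in its NTG controls. In the first experiment the leukocyte sums overlapped (1072 to 1260.5 in NTG, 894 to 1139 in siINO80#1 and 715 to 1411 in siINO80#2). In DMSO the leukocyte marker CD68 went from 1005 with NTG to 751 with siMCRS1 on average, and CD14 from 12.9 to 22.9. What the sums of these 2 lists reflect was not tested either. Mitochondrial genes took 17.7% of the siINO80#2 C library against 7.93% to 9.21% of the other libraries of that experiment.

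Where a gene averaged 10 normalized counts or more across an experiment, it was tested with limma on log2(normalized count + 1), and a gene is called higher or lower where its Benjamini-Hochberg adjusted p over all genes tested was under 0.05. By this filter 34 of the 37 members were tested in the INO80 experiment and 35 of the 37 in the siMCRS1 experiment. F9, the protease missing in haemophilia B, was listed at 0 in every library but siINO80#2 B, where it had 1 read. F13A1, the catalytic subunit of the fibrin-crosslinking factor XIII, reached at most 4 reads in the INO80 experiment and 1 read in the other. KLKB1 was under the filter in the INO80 experiment only. Per kilobase of transcript, the NTG level was highest for the protease inhibitor A2M (17193 normalized counts), followed by the fibrinogen chains FGG (8462) and FGA (6899), and among tested members it was lowest for HABP2 (2.24). In DMSO with NTG the order per kilobase was FGG (14154), A2M (13184) and FGA (8746).

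More members fell than rose with every siRNA. With siINO80#1, 16 of 34 tested members were called, 4 higher and 12 lower, where 41.6% of all 14034 genes tested were called, 20.7% higher and 20.8% lower. With siINO80#2, 21 of 34 were called, 4 higher and 17 lower, against a background of 55% of all genes, 26.6% higher and 28.4% lower. With siMCRS1 in DMSO, 19 of 35 were called, 5 higher and 14 lower, against 47.7% of 14312 genes, 23.1% higher and 24.6% lower. Without DMSO NTG 1 the count was 9 (3 higher, 6 lower), against 32.1% of genes. With siMCRS1 in EPZ-6438, 22 of 35 were called, 6 higher and 16 lower, against 53.7%, 26.8% higher and 26.9% lower. The shares of members called in any direction (47.1%, 61.8%, 54.3% and 62.9%) were thus near the background, while the members called were mostly lower and the calls over all genes were about evenly divided. The median log2 fold change of the tested members was -0.22, -0.43, -0.40 and -0.62 in these comparisons, where the median of all genes lay between 0.00 and 0.01. In these bulk libraries fewer cells of a type and less RNA per cell cannot be told apart.

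**Figure D1:**
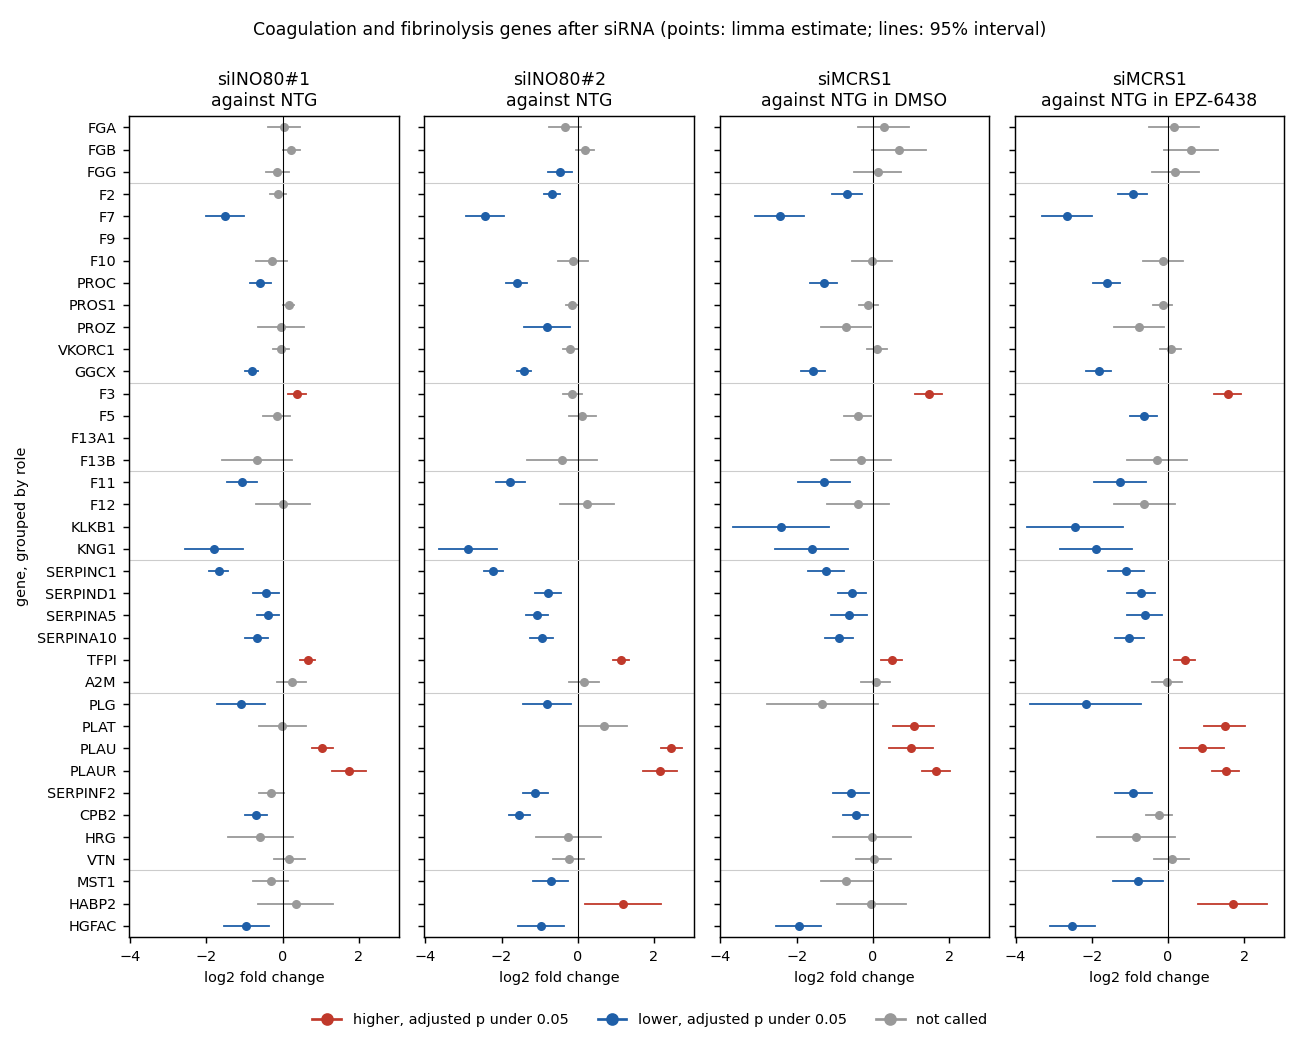
Log2 fold change of each coagulation and fibrinolysis gene (rows, grouped by role) with each siRNA against NTG (panels); points are limma estimates, lines their 95% intervals, and colour marks the call. Most called members lie left of 0, and TFPI, PLAU and PLAUR are called and lie right of 0 in every panel; of the fibrinogen chains FGG is called with siINO80#2 (-0.46), and FGB lies right of 0 with siMCRS1 (0.67 and 0.60) without a call. Rows without a point were not tested.

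The members called with siINO80 and with siMCRS1 come from experiments that share no library. Of 34 members tested in both, 13 were called lower with siINO80#2 and with siMCRS1 in DMSO, which is 76.5% of the 17 lower with siINO80#2 and 100% of the 13 lower with siMCRS1; over all genes the shared part was 55.2% and 64.1%. The 3 members called higher in both (TFPI, PLAU and PLAUR) were 75% and 60% of the lists, where over all genes the shares were 57% and 64.6%. The siMCRS1 lists are drawn from the 19 calls, which became 9 without DMSO NTG 1. No member was called in opposite directions by an siRNA against INO80 and the siRNA against MCRS1. Such calls were few over all genes too. Of 3683 genes higher with siINO80#2, 188 were lower with siMCRS1 in DMSO, and of 3987 lower, 175 were higher. The comparisons with siINO80#1 and siINO80#2 use the same NTG libraries, so their values below stand side by side and are not independent.

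Fibrinogen, the precursor of fibrin, is built from the chains encoded by FGA, FGB and FGG, which lie together on chromosome 4 with gaps of 10.3 kb between FGB and FGA and 13.4 kb between FGA and FGG. The 3 chains were among the most abundant members, and the only call among them in the comparisons with NTG was that of FGG with siINO80#2. FGA had 16295, 12596 and 16828 normalized counts in NTG, 17699, 12423 and 16669 in siINO80#1, and 10737, 15859 and 10129 in siINO80#2. The FGA ranges overlapped, and the log2 fold changes were 0.03 (standard error 0.19, adjusted p = 0.920) and -0.33 (standard error 0.19, adjusted p = 0.157). FGB had 6157, 5919 and 7181 normalized counts in NTG, 7931, 6657 and 8012 in siINO80#1, and 6605, 7648 and 7610 in siINO80#2. FGB was not called with either siRNA (0.23, adjusted p = 0.0976, and 0.18, adjusted p = 0.152). FGG had 17110, 16094 and 19393 normalized counts in NTG, 18176, 13670 and 16253 in siINO80#1, and 12209, 15289 and 10945 in siINO80#2. For FGG the siINO80#2 libraries all lay below the NTG libraries, and it was called lower with siINO80#2 (-0.46, standard error 0.14, adjusted p = 0.0160) and not with siINO80#1 (-0.13, adjusted p = 0.477). The difference between the siRNAs was itself not called for FGG (-0.33, adjusted p = 0.121), and without NTG C the siINO80#2 call was lost (-0.39, adjusted p = 0.0657). Without siINO80#2 B, FGA was called lower with siINO80#2 (-0.54, adjusted p = 0.0186), and FGB was called higher with siINO80#1 without NTG C (0.31, adjusted p = 0.0456) or without siINO80#1 B (0.32, adjusted p = 0.0429).

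With siMCRS1 no fibrinogen chain was called. FGA had 23726 and 14914 normalized counts in DMSO with NTG and 29210, 28688 and 14136 in DMSO with siMCRS1, a difference of 0.28 on the log2 scale (95% interval -0.39 to 0.94). FGB had 10045 and 6153 normalized counts in DMSO with NTG and 14586, 16867 and 8018 in DMSO with siMCRS1 (0.67, interval -0.03 to 1.38). FGG had 34107 and 24548 normalized counts in DMSO with NTG and 38633, 37901 and 21666 in DMSO with siMCRS1 (0.13, interval -0.49 to 0.75). For all 3 chains DMSO NTG 1 was above DMSO NTG 3 and DMSO siMCRS1 3 was the lowest library of its group. Without DMSO siMCRS1 3, FGA and FGB were called higher with siMCRS1 in DMSO (0.62, adjusted p = 0.0412, and 1.00, adjusted p = 0.0136). In EPZ-6438 the differences were 0.15 for FGA, 0.60 for FGB and 0.18 for FGG, none called.

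**Figure D2:**
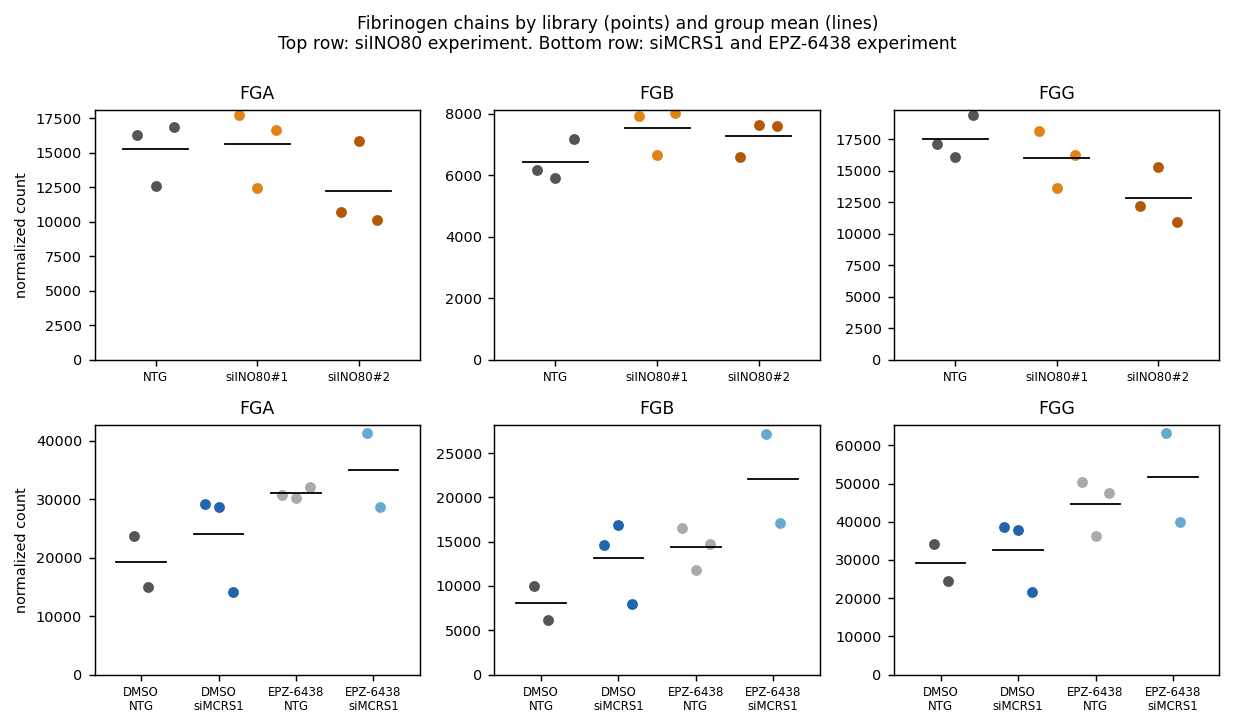
Normalized counts of FGA, FGB and FGG (y axes, from 0) in every library of the siINO80 experiment (top) and of the siMCRS1 and EPZ-6438 experiment (bottom), with lines at group means. In DMSO the siMCRS1 libraries overlap NTG for all 3 chains, FGG is lower in all 3 siINO80#2 libraries than in NTG, and the EPZ-6438 groups have higher means than the DMSO groups with the same siRNA.

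The 250 bases before the annotated start of the fibrinogen genes are shown because the chains lie in 1 cluster and, but for FGG with siINO80#2, were not called while most called members of the list fell. They are RefSeq sequence (GRCh38.p14) in transcript direction, 5′ to 3′, at chr4:154590743-154590992 (FGA, minus strand), chr4:154562730-154562979 (FGB, plus strand) and chr4:154612657-154612906 (FGG, minus strand). Capitals mark matches on either strand to an HNF1-type site (GTTAAT), a C/EBP-type site (TTGCNNAA) or a STAT3-type site (CTGGGAA); no matches overlap.
FGA: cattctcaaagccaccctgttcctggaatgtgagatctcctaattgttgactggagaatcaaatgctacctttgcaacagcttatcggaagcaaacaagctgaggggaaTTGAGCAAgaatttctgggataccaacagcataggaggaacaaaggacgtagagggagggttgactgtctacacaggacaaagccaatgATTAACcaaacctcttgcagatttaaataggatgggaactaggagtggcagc
FGB: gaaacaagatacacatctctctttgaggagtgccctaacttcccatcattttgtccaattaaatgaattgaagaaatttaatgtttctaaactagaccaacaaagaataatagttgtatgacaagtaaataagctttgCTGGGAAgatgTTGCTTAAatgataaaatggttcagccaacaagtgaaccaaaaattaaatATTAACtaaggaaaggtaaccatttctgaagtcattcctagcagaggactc
FGG: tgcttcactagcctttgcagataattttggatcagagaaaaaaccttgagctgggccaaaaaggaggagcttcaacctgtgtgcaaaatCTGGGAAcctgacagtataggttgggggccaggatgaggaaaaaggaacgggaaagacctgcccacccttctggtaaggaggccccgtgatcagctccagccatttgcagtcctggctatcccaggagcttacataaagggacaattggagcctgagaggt
The HNF1-type site begins 52 bases before the FGA start and 51 before the FGB start, and the FGG window holds a STAT3-type match and no HNF1-type site. The windows searched for shares ran from 250 bases before to 50 after a start, and 33 of the 37 members had one in the table. The HNF1-type site was in 10 of these 33 (30.3%) and in 6.88% of all 35116 promoters, the C/EBP-type site in 11 (33.3% against 10.5%), an HNF4-type site (CAAAGTCC) in 4 (12.1% against 1.20%), the STAT3-type site in 5 (15.2% against 10.8%) and TATAAA in 3 (9.09% against 11.5%). A member was counted if any of its windows held the letters, while the share over all promoters counts single windows. A member with several windows thus had more chances of a match, so the shares are not counted alike. A match is a description of letters and not of binding.

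Among the vitamin K-dependent proteins and the enzymes that serve them, 8 of 9 members were tested, and all those called were lower: 3 with siINO80#1, 5 with siINO80#2, and 4 with siMCRS1 in either treatment. The shares called (37.5%, 62.5%, 50% and 50%) were near those of all genes called in any direction (41.6%, 55%, 47.7% and 53.7%). Over all genes 20.8%, 28.4%, 24.6% and 26.9% were called lower. F7, the protease that starts clotting with tissue factor, fell most. F7 had 311, 259 and 382 normalized counts in NTG, 128, 90.2 and 115 in siINO80#1, and 40.4, 67.4 and 67.1 in siINO80#2. The 3 groups did not overlap, the log2 fold changes were -1.51 (standard error 0.23, adjusted p = 0.000407) and -2.44 (standard error 0.23, adjusted p = 8.42e-06), and siINO80#2 was lower than siINO80#1 (-0.94, adjusted p = 0.0143). That last call was lost without siINO80#1 A (-0.83, adjusted p = 0.0584). In the second experiment F7 had 312 and 232 normalized counts in DMSO with NTG, 57.9, 41.9 and 47.3 in DMSO with siMCRS1, 232, 321 and 279.6 in EPZ-6438 with NTG, and 60.8 and 30.2 in EPZ-6438 with siMCRS1. All siMCRS1 libraries were below all NTG libraries, with log2 fold changes of -2.45 in DMSO (adjusted p = 0.000115) and -2.65 in EPZ-6438 (adjusted p = 4.53e-05).

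F7, F10 and PROZ stand in a row on chromosome 13, with 2.1 kb between F7 and F10 and 9.1 kb between F10 and PROZ, and did not move alike. F10, the protease of the prothrombin-cleaving complex, was not called with any siRNA, with log2 fold changes of -0.29, -0.12, -0.02 and -0.14 in the order above, and its 95% intervals included 0. PROZ, a cofactor for the inhibition of activated factor X, was at 82.8 normalized counts on average in NTG and was called lower with siINO80#2 (-0.82, adjusted p = 0.0262, with overlapping libraries); the call was lost without NTG A, NTG C, siINO80#2 A or siINO80#2 C (adjusted p = 0.0991, 0.104, 0.0688 and 0.0718). With siMCRS1 PROZ differed by -0.70 in DMSO (adjusted p = 0.0737) and -0.76 in EPZ-6438 (adjusted p = 0.0503). It was called lower on rescaling to equal totals (-0.93, adjusted p = 0.0284, and -0.99, adjusted p = 0.0194). In EPZ-6438 it was also called with a pseudocount of 5, without a trend, by edgeR and without EPZ-6438 NTG 1 (adjusted p = 0.0450, 0.0369, 0.0409 and 0.0167). The 250 bases before the starts of F7 (chr13:113105541-113105790, plus strand) and F10 (chr13:113122549-113122798, plus strand) show a pair of neighbours of which one fell; they were chosen after the values were seen, with capitals as above.
F7: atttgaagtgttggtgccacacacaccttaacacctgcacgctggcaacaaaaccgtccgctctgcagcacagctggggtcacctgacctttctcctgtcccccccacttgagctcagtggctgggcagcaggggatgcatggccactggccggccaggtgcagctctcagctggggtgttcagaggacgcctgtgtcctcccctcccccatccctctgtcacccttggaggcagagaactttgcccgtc
F10: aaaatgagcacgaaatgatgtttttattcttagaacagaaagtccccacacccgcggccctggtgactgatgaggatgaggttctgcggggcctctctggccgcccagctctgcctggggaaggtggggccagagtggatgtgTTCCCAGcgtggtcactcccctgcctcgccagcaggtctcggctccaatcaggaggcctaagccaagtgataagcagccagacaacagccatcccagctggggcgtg
The F10 window holds a STAT3-type match on its other strand that begins 107 bases before the start and an HNF4-type match that begins 1 base before it and so runs past the bases shown. None of the searched letters is in the F7 window.

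PROC, the zymogen of the anticoagulant protein C, had 1464, 1306 and 1576 normalized counts in NTG, 934, 926 and 1027 in siINO80#1, and 449.8, 582 and 410.0 in siINO80#2, and fell by 0.59 (adjusted p = 0.00332) and 1.60 (adjusted p = 2.72e-06) on the log2 scale. With siMCRS1 PROC fell by 1.30 in DMSO (adjusted p = 0.000158) and 1.62 in EPZ-6438 (adjusted p = 2.91e-05). GGCX, the carboxylase that modifies all these proteins, went from 3875, 4166 and 4500 normalized counts in NTG to 2388, 2198 and 2572 in siINO80#1 and 1530, 1572 and 1609 in siINO80#2. Its log2 fold changes were -0.81 and -1.41, and -1.57 and -1.83 with siMCRS1 in DMSO and EPZ-6438, and the groups did not overlap. GGCX overlaps MAT2A on the opposite strand, and whether the quantification used strand is not stated. F7, PROC and GGCX kept their calls against NTG under all 20 or 21 alternatives of each siRNA comparison. F2, which encodes prothrombin, was called lower with siINO80#2 (-0.68, adjusted p = 0.000145) and siMCRS1 (-0.68 in DMSO, adjusted p = 0.00885, and -0.93 in EPZ-6438, adjusted p = 0.00121), and was at -0.12 with siINO80#1 (adjusted p = 0.356). The call in DMSO was lost without DMSO NTG 1 (-0.49, adjusted p = 0.106). VKORC1, which recycles vitamin K, and PROS1, the protein C cofactor protein S, were not called with any siRNA against NTG (log2 fold changes from -0.20 to 0.15). For PROS1 rescaling to equal totals gave calls with siINO80#2 (-0.27, adjusted p = 0.0216) and siMCRS1 (-0.35 in DMSO, adjusted p = 0.0120, and -0.38 in EPZ-6438, adjusted p = 0.00720). Quantile normalization gave calls in the same 3 comparisons (-0.19, -0.32 and -0.41, adjusted p = 0.0328, 0.0154 and 0.00367). PROS1 was also called with siINO80#2 without siINO80#2 B (-0.20, adjusted p = 0.0406). VKORC1 was called lower with siINO80#2 without NTG B or siINO80#2 B (-0.27 and -0.26, adjusted p = 0.0405 and 0.0437).

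Tissue factor, the product of F3 and the trigger of clotting, rose with siMCRS1. F3 had 536 and 432 normalized counts in DMSO with NTG and 1387, 1476 and 1142 in DMSO with siMCRS1. In EPZ-6438 it had 455, 434 and 364 with NTG and 1128 and 1333 with siMCRS1. The groups were well apart, with log2 fold changes of 1.46 in DMSO (adjusted p = 6.78e-05) and 1.56 in EPZ-6438 (adjusted p = 2.83e-05), each with a standard error of 0.16. In the INO80 experiment F3 had 248, 305 and 293 normalized counts in NTG, 403, 340.1 and 359 in siINO80#1, and 267, 245 and 252 in siINO80#2. It was called higher with siINO80#1 (0.38, adjusted p = 0.0161) and not with siINO80#2 (-0.14, adjusted p = 0.300), and the siRNAs differed (-0.52, adjusted p = 0.00726). The siINO80#1 call was lost on rescaling to equal totals (0.30, adjusted p = 0.0636), without NTG A (0.29, adjusted p = 0.0675) and without siINO80#1 A (0.31, adjusted p = 0.0667). F5, the cofactor of activated factor X, was called in 1 comparison, lower with siMCRS1 in EPZ-6438 (-0.65, adjusted p = 0.00661); in DMSO it was at -0.40 (adjusted p = 0.0644) and past the threshold on rescaling to equal totals (-0.64, adjusted p = 0.00560). F13B, the carrier subunit of factor XIII, was at low counts (28.0 in NTG and 42.6 in DMSO with NTG on average) and was not called. Without NTG B it was called lower with siINO80#1 (-1.15, adjusted p = 0.0242).

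In the contact system, which activates clotting from the surface side and releases bradykinin, KNG1 and F11 fell with every siRNA and F12 did not pass the test. KNG1, the kininogen from which bradykinin is cut, had 104, 72.9 and 149.8 normalized counts in NTG, 34.6, 23.8 and 29.7 in siINO80#1, and 7.85, 15.3 and 18.9 in siINO80#2. The groups did not overlap, and the log2 fold changes were -1.81 (standard error 0.34, adjusted p = 0.00173) and -2.89 (standard error 0.34, adjusted p = 4.55e-05). The difference between the siRNAs was -1.08 (adjusted p = 0.0460), a call kept in 9 of 20 alternatives and lost, with adjusted p up to 0.139, without NTG A, any siINO80#1 library, siINO80#2 A or siINO80#2 B. KNG1 fell with siMCRS1 too, by 1.61 in DMSO (adjusted p = 0.00985) and 1.90 in EPZ-6438 (adjusted p = 0.00342), from the levels given with the drug below; without DMSO NTG 1 the call in DMSO was lost (-1.47, adjusted p = 0.0730). F11, the protease factor XI, had 474, 392.1 and 553 normalized counts in NTG, 243, 177 and 258 in siINO80#1, and 138, 119 and 156 in siINO80#2, with log2 fold changes of -1.07 (adjusted p = 0.000686) and -1.77 (adjusted p = 1.24e-05). With siMCRS1 F11 was at -1.28 in DMSO (adjusted p = 0.00644) and -1.26 in EPZ-6438 (adjusted p = 0.00601), calls that were lost without DMSO NTG 1 (-1.09, adjusted p = 0.0671) and without EPZ-6438 siMCRS1 B (-0.79, adjusted p = 0.0902).

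KLKB1, plasma prekallikrein, lies 7.7 kb from F11 on chromosome 4 and was low in both experiments. It had 12.3, 15.4 and 24.0 normalized counts in NTG, 3.58, 0.991 and 0.875 in siINO80#1, and 2.24, 2.30 and 1.89 in siINO80#2. The siINO80 libraries were at or near the floor of 3 reads, so no fold change is given for them, and the gene did not enter the test. In the second experiment KLKB1 had 20.1 and 11.5 normalized counts in DMSO with NTG and 4.45, 1.10 and 1.43 in DMSO with siMCRS1, with 26.9, 15.6 and 16.8 against 4.0 and 1.78 in EPZ-6438. It was called lower in both (adjusted p = 0.00536 and 0.00426), and since most siMCRS1 libraries were under the floor, the fitted values of -2.42 and -2.44 depend on the pseudocount of 1. With means of 2.33 and 2.89 in the siMCRS1 groups and 15.8 and 19.8 in the NTG groups, KLKB1 passed the filter of 10 only through NTG. These calls are counted among the members lower with siMCRS1 but are no independent support for a fall. The call in EPZ-6438 was lost without EPZ-6438 siMCRS1 B (-2.02, adjusted p = 0.0528). F12, which starts contact activation, was at 25.3 normalized counts on average in NTG and differed by 0.02 and 0.24 with siINO80#1 and siINO80#2 and by -0.40 and -0.62 with siMCRS1 in DMSO and EPZ-6438. Without EPZ-6438 NTG 2 it was called lower with siMCRS1 in EPZ-6438 (-0.99, adjusted p = 0.0207).

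**Figure D3:**
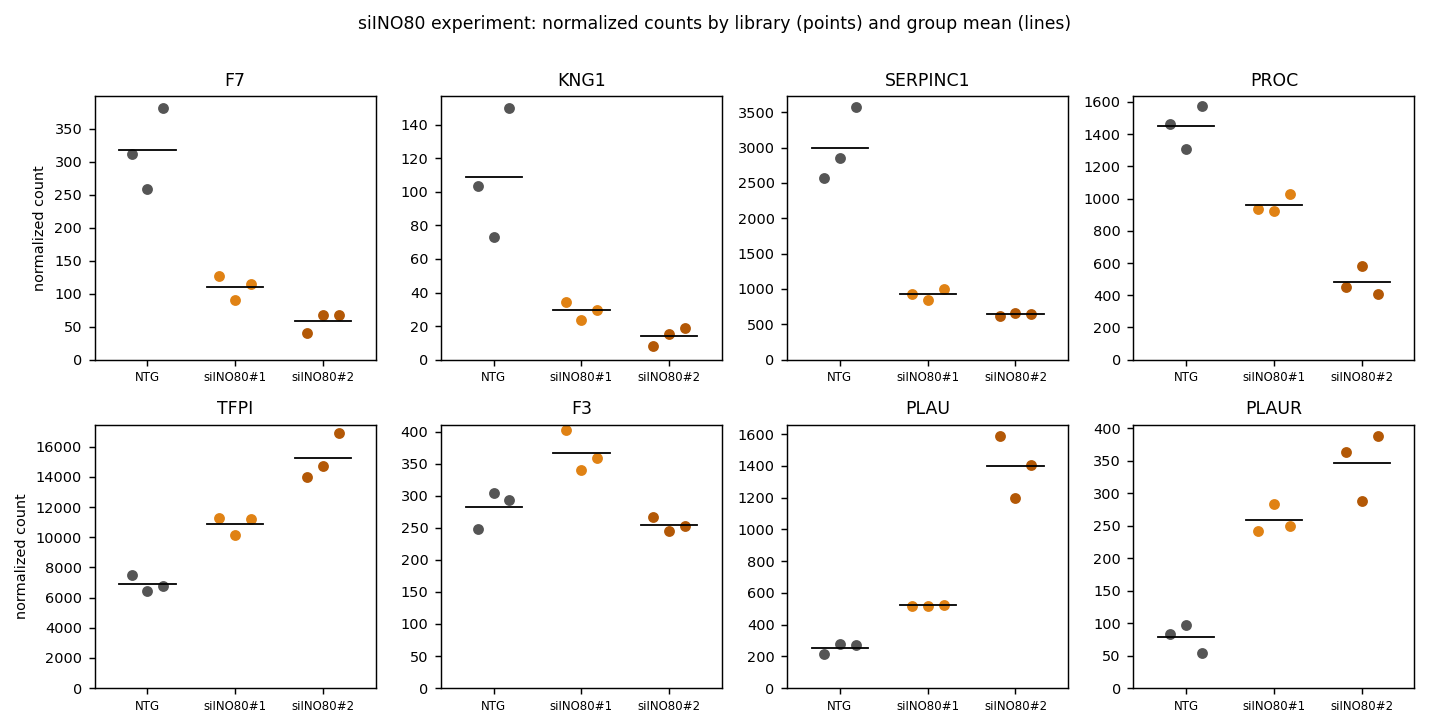
Normalized counts (y axes, from 0) of 8 members in each library of NTG, siINO80#1 and siINO80#2, with lines at group means. F7, KNG1, SERPINC1 and PROC (top) are lower in all siINO80 libraries than in any NTG library, TFPI, PLAU and PLAUR (bottom) are higher in all of them, and F3 is higher in siINO80#1 only.

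The inhibitors of coagulation divided into serpins that fell and TFPI that rose. SERPINC1, antithrombin, had 2565, 2849 and 3576 normalized counts in NTG, 931, 849 and 1005 in siINO80#1, and 614, 659 and 648 in siINO80#2. It was lower in all siINO80 libraries, by 1.68 (standard error 0.11, adjusted p = 2.77e-06) and by 2.21 (standard error 0.11, adjusted p = 3.07e-07). In DMSO SERPINC1 went from 3275 and 2738 normalized counts with NTG to 1439, 1557 and 907 with siMCRS1, and in EPZ-6438 from 4284, 3909 and 4030 to 2229 and 1584. These changes were -1.24 (adjusted p = 0.000910) and -1.12 (adjusted p = 0.00136), and SERPINC1 kept its call against NTG in all 20 or 21 alternatives of each siRNA comparison. SERPIND1 (heparin cofactor II), SERPINA5 (protein C inhibitor) and SERPINA10 (the protein Z-dependent inhibitor) were also called lower in each comparison with NTG, with log2 fold changes from -0.39 to -1.07. SERPINA10 kept its calls in all alternatives (-0.68 and -0.95 with siINO80#1 and siINO80#2, -0.89 and -1.02 with siMCRS1). With siINO80#1 SERPINA5 (-0.39, adjusted p = 0.0369) kept its call in 14 of 20 alternatives and SERPIND1 (-0.43, adjusted p = 0.0439) in 13 of 20; both calls were lost without NTG C (adjusted p = 0.145 and 0.139), siINO80#1 A (0.0657 and 0.0673) or siINO80#1 B (0.129 and 0.167), SERPINA5 also without siINO80#1 C (0.0551) and SERPIND1 also without NTG A (0.125). When library letters entered the fit as blocks, SERPINA5 was not called with siINO80#1 (adjusted p = 0.0558). In DMSO with siMCRS1 SERPINA5 (-0.62) lost its call without DMSO NTG 1, DMSO NTG 3 or DMSO siMCRS1 3 (adjusted p = 0.171, 0.0671 and 0.0921), and SERPIND1 (-0.55) without DMSO NTG 1 or DMSO siMCRS1 3 (0.145 and 0.0567). In EPZ-6438 the SERPINA5 call was lost without EPZ-6438 NTG 1 or 3 or EPZ-6438 siMCRS1 B (0.0606, 0.0671 and 0.344). SERPINA5 overlaps SERPINA4 on the same strand, and SERPIND1 overlaps PI4KA on the opposite one.

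TFPI, the inhibitor of tissue factor and factor VII, had 7487, 6431 and 6780 normalized counts in NTG, 11247, 10131 and 11217 in siINO80#1, and 13996, 14739 and 16928 in siINO80#2. The groups did not overlap, and TFPI rose by 0.66 (standard error 0.09, adjusted p = 0.000277) and by 1.14 (standard error 0.09, adjusted p = 3.80e-06), more with siINO80#2 than with siINO80#1 (0.48, adjusted p = 0.00489). With siMCRS1 it had 16658, 14890 and 15563 normalized counts in DMSO against 12021 and 10383 with NTG, and 10971 and 13228 in EPZ-6438 against 9029, 9864 and 7958. These differences were called (0.49, adjusted p = 0.00793, and 0.43, adjusted p = 0.0128) but depended on the scaling: with quantile normalization they were 0.12 (adjusted p = 0.40) and 0.02 (adjusted p = 0.870), and rescaled to equal totals 0.25 (adjusted p = 0.0832) and 0.20 (adjusted p = 0.166). The calls for TFPI were also lost without DMSO NTG 3 (0.38, adjusted p = 0.0799) and without EPZ-6438 siMCRS1 B (0.30, adjusted p = 0.157). A2M, the broad protease inhibitor with the highest level per kilobase in NTG, was not called with any siRNA (log2 fold changes from -0.02 to 0.24). With quantile normalization it was called lower with siMCRS1 in EPZ-6438 (-0.43, adjusted p = 0.0204). A2M overlaps A2M-AS1 on the opposite strand.

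In the plasminogen system the urokinase genes PLAU and PLAUR were called higher in all 4 siRNA comparisons with NTG. PLG, SERPINF2 and CPB2 were each called lower in 3 of the 4 and not called in 1, and HRG and VTN were not called. PLAU, which encodes the activator uPA, had 213, 280.2 and 269.8 normalized counts in NTG, 519, 519.5 and 526 in siINO80#1, and 1591, 1195 and 1409 in siINO80#2. The 3 groups were apart, with increases of 1.04 (standard error 0.12, adjusted p = 9.06e-05) and 2.45 (standard error 0.12, adjusted p = 2.89e-07), and siINO80#2 was above siINO80#1 by 1.41 (adjusted p = 9.36e-05). With siMCRS1 PLAU had 1098, 702 and 969.7 normalized counts in DMSO against 416 and 496 with NTG, and 1080.0 and 579 in EPZ-6438 against 491, 369 and 428. The changes were 1.00 (adjusted p = 0.00888) and 0.89 (adjusted p = 0.0137). The call in DMSO was lost without DMSO NTG 1 (0.87, adjusted p = 0.0755), and that in EPZ-6438 without EPZ-6438 siMCRS1 A (0.44, adjusted p = 0.181) and on rescaling to equal totals (0.65, adjusted p = 0.0735). PLAU overlaps C10orf55 on the opposite strand.

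PLAUR, the cell surface receptor that holds uPA, had 83.6, 96.5 and 53.8 normalized counts in NTG, 242, 284 and 249 in siINO80#1, and 362, 287 and 388 in siINO80#2. Its level was thus 3.31 and 4.44 times that of NTG on average, with log2 fold changes of 1.75 (standard error 0.20, adjusted p = 7.15e-05) and 2.16 (standard error 0.20, adjusted p = 8.69e-06). The siRNAs did not differ past the threshold (0.41, 95% interval -0.03 to 0.86, adjusted p = 0.172). In the second experiment PLAUR had 146 and 141 normalized counts in DMSO with NTG and 475, 399 and 496 in DMSO with siMCRS1, and 113, 115 and 102 against 351 and 282 in EPZ-6438. The changes were 1.65 (adjusted p = 4.04e-05) and 1.51 (adjusted p = 3.81e-05), and PLAUR kept its call against NTG in all 20 or 21 alternatives of each siRNA comparison. The bases before its start (chr19:43670170-43670419, minus strand, GRCh38.p14, chosen after the values were seen) are shown as an example of a member that rose, with a C/EBP-type match in capitals that begins 62 bases before the start.
PLAUR: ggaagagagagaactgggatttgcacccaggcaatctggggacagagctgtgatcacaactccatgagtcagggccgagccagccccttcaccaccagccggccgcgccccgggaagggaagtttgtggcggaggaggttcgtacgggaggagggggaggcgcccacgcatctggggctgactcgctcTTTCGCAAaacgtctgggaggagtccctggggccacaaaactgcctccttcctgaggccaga
The C/EBP-type letters were thus in windows of members that rose (PLAU, PLAUR), fell (KNG1, PROC, SERPINA10) and were not called against NTG (FGA, FGB, VTN).

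PLAT, which encodes the other activator, tPA, had 33.5, 72.9 and 45.1 normalized counts in NTG, 35.8, 59.5 and 50.7 in siINO80#1, and 70.7, 80.4 and 81.2 in siINO80#2. It was not called with siINO80#1 (-0.01, adjusted p = 0.982) or siINO80#2 (0.68, adjusted p = 0.0600), and was past the threshold with siINO80#2 without NTG B (0.97, adjusted p = 0.00925) or when library letters entered the fit as blocks (0.68, adjusted p = 0.0189). With siMCRS1 PLAT rose from 39.3 and 59.2 normalized counts to 91.3, 111 and 105 in DMSO (1.07, adjusted p = 0.00487) and from 30.2, 40.5 and 32.6 to 104 and 90.5 in EPZ-6438 (1.48, adjusted p = 0.000558). The groups did not overlap, and the call in DMSO was lost without DMSO NTG 1 (0.78, adjusted p = 0.0691). PLG, plasminogen itself, had 82.5, 52.4 and 93.1 normalized counts in NTG, 42.9, 34.7 and 26.2 in siINO80#1, and 31.4, 42.9 and 54.8 in siINO80#2. It fell with siINO80#1 (-1.10, adjusted p = 0.0101) and with siINO80#2 (-0.80, adjusted p = 0.0337), where libraries overlapped and the call was lost without NTG A, NTG C, siINO80#2 A or siINO80#2 B (adjusted p = 0.10, 0.127, 0.122 and 0.0579). With siMCRS1 PLG had 34.5, 23.1 and 18.6 normalized counts in DMSO against 110.1 and 36.3 with NTG (-1.33, adjusted p = 0.119), and 74.4 and 18.6 in EPZ-6438 against 302, 87.4 and 190.3 (-2.16, adjusted p = 0.0170). The last call was lost without EPZ-6438 NTG 1 (-1.76, adjusted p = 0.0582) or EPZ-6438 siMCRS1 B (-1.19, adjusted p = 0.213). PLG has near-identical relatives in the genome, so its reads may be shared with them.

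Of the inhibitors of fibrinolysis, CPB2 (the carboxypeptidase TAFI, which protects fibrin from plasmin) fell from 1532 normalized counts on average in NTG to 952 in siINO80#1 and 529.5 in siINO80#2 (-0.70, adjusted p = 0.00130, and -1.54, adjusted p = 3.88e-06). With siMCRS1 CPB2 was called lower in DMSO (-0.45, adjusted p = 0.0300) and not in EPZ-6438 (-0.24, adjusted p = 0.214), and the interaction of siRNA and drug was not called (0.22 on the log2 scale). In EPZ-6438 CPB2 was called lower on rescaling to equal totals (-0.47, adjusted p = 0.0128) and with quantile normalization (-0.43, adjusted p = 0.0223). The DMSO call was lost without DMSO NTG 1 (-0.30, adjusted p = 0.244) or DMSO siMCRS1 3 (-0.31, adjusted p = 0.0896). SERPINF2, the direct plasmin inhibitor, was at -0.30 with siINO80#1 (adjusted p = 0.140), fell by 1.11 with siINO80#2 (adjusted p = 0.000103), and fell by 0.58 and 0.91 with siMCRS1 (adjusted p = 0.0467 and 0.00456). The call for SERPINF2 in DMSO was kept in 12 of 21 alternatives and lost without DMSO NTG 1, DMSO siMCRS1 2 or 3, or any EPZ-6438 NTG library (adjusted p = 0.302, 0.0567, 0.137, 0.0575, 0.0586 and 0.0603), and that in EPZ-6438 without EPZ-6438 siMCRS1 B (-0.63, adjusted p = 0.0705). VTN (vitronectin, an adhesive plasma protein) and HRG (a plasminogen-binding plasma protein) were not called, with log2 fold changes from -0.24 to 0.18 and from -0.83 to -0.03. Without siINO80#1 B, HRG was called lower with siINO80#1 (-1.02, adjusted p = 0.0429). HRG lies 39.1 kb from KNG1 on chromosome 3 and was low, at 18.7 normalized counts on average in NTG and 8.13 in DMSO with NTG, so only large changes could be seen.

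**Figure D4:**
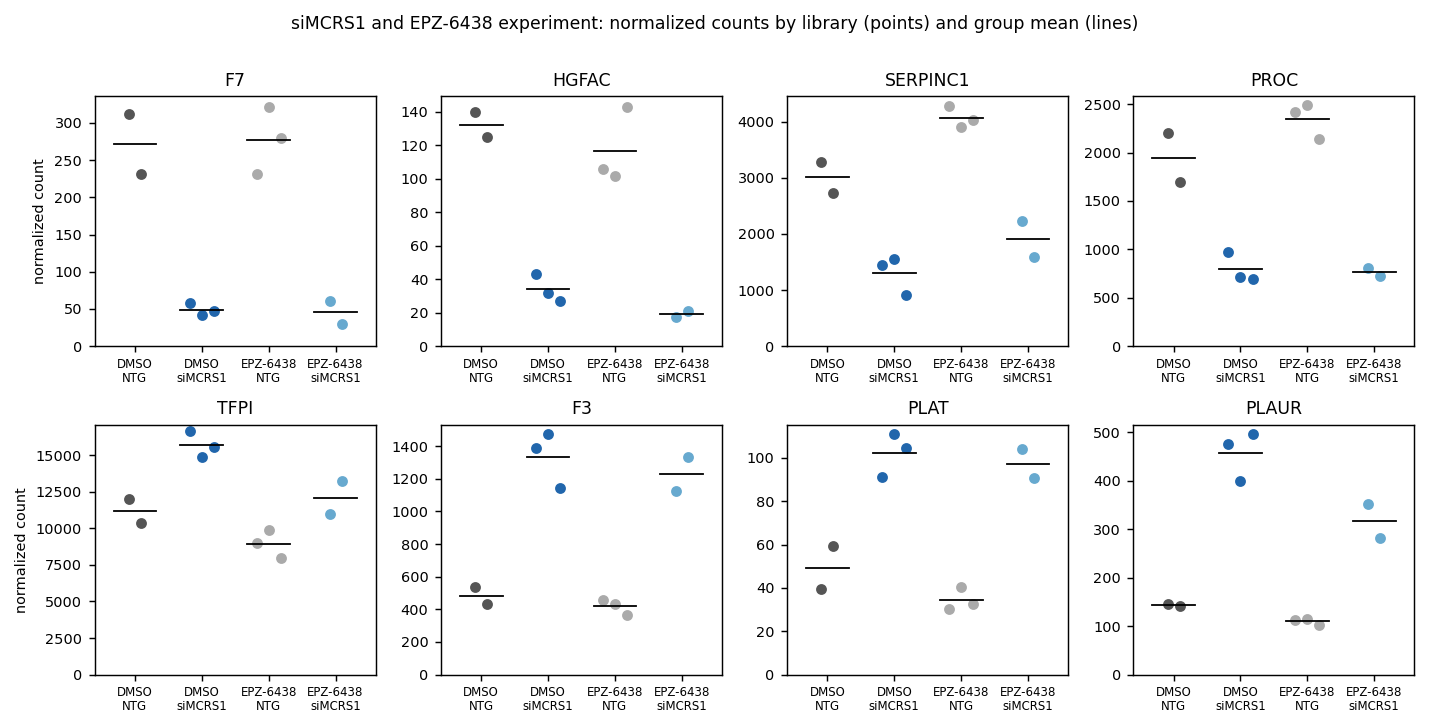
Normalized counts (y axes, from 0) of 8 members in each library of the siMCRS1 and EPZ-6438 experiment, with lines at group means. In DMSO and in EPZ-6438 alike F7, HGFAC, SERPINC1 and PROC (top) are lower in every siMCRS1 library than in its NTG controls, and TFPI, F3, PLAT and PLAUR (bottom) are higher; for TFPI this order depends on the scaling.

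The last 3 members are plasma proteases and a relative of the hepatocyte growth factor (HGF) system. HGFAC, the protease that activates HGF, had 176, 113 and 215 normalized counts in NTG, 90.6, 64.4 and 99.7 in siINO80#1, and 92.0, 100.3 and 60.5 in siINO80#2. It fell with both siRNAs (-0.95, adjusted p = 0.0161, and -0.97, adjusted p = 0.0105), with a difference between them of -0.02 (95% interval -0.62 to 0.58). The siINO80#1 call was lost without NTG A, NTG C or siINO80#1 B (adjusted p = 0.0540, 0.0726 and 0.0668) and the siINO80#2 call without NTG C (-0.77, adjusted p = 0.0501). With siMCRS1 HGFAC fell from 139.8 and 125 normalized counts to 43.4, 31.9 and 27.2 in DMSO (-1.95, adjusted p = 0.000226) and from 106, 102 and 143 to 17.6 and 21.3 in EPZ-6438 (-2.51, adjusted p = 3.48e-05). MST1, an HGF-like protein with near-identical copies elsewhere in the genome and therefore uncertain counts, was called lower with siINO80#2 (-0.71, adjusted p = 0.0127, lost without NTG C at 0.0585) and with siMCRS1 in EPZ-6438 (-0.78, adjusted p = 0.0455, kept in 11 of 20 alternatives; it was lost without DMSO NTG 1 or 3, DMSO siMCRS1 3, EPZ-6438 NTG 1 or 3 or EPZ-6438 siMCRS1 B, with adjusted p up to 0.391). HABP2, a protease that can activate factor VII and pro-urokinase in vitro, was near the limit of detection in the INO80 experiment, at 4.46, 4.11 and 11.5 normalized counts in NTG, 4.77, 8.92 and 11.4 in siINO80#1, and 12.3, 14.6 and 18.9 in siINO80#2. Its call with siINO80#2 (1.19, adjusted p = 0.0434) was kept in 6 of 14 alternatives, and was lost without NTG A (adjusted p = 0.126), NTG B (0.134) or siINO80#1 B (0.0567). The call was also lost without a filter, on rescaling to equal totals, with quantile normalization, with only the groups compared and by DESeq2 (adjusted p = 0.0744, 0.0594, 0.0593, 0.0533 and 0.106). In the alternatives beyond these 14 the gene was under the filter. The NTG and the siINO80#1 libraries averaged under 10 normalized counts, so HABP2 passed the filter only through siINO80#2, where it was called. This call is counted among the members higher with siINO80#2 but is no independent support for a rise.

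Between the siRNAs against INO80, 14 of 34 members were called, 2 higher and 12 lower with siINO80#2, against 22.1% of all genes, 9.48% higher and 12.6% lower. The median member was at -0.32, where the median of all genes was at -0.01. The members lower with siINO80#2 were F2, F7, PROC, PROS1, GGCX, F3, F11, KNG1, SERPINC1, SERPINA5, SERPINF2 and CPB2, and those higher were TFPI and PLAU. The INO80 level was also lower with siINO80#2 than with siINO80#1 (-0.40 on the log2 scale), and its part in these differences was not tested. Without the siINO80#2 C library, with its high mitochondrial share, 15 members were called between the siRNAs (2 higher, 13 lower), against 21.2% of all genes. With siINO80#2 against NTG 19 were called (3 higher, 16 lower), against 53.9% of all genes.

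EPZ-6438 was tested against DMSO within each siRNA. In NTG libraries no member was called by limma, where 0.384% of all genes were called; 14 of 35 members and 2443 of 14312 genes had an unadjusted p under 0.05. EdgeR called 0 members and 0.475% of all genes, and DESeq2 called 4 members and 5.04% of all genes. A block by the number in the column names, added after the values were seen, gave 6 members and 8.10% of all genes. The members' median log2 fold change was 0.35, against -0.03 over all genes. KNG1 was at 87.1 and 71.6 normalized counts in DMSO with NTG and at 254, 293 and 376 in EPZ-6438 with NTG. The drug libraries were all above the DMSO libraries, 3.88 times as high on average, a log2 fold change of 1.93 (adjusted p = 0.0852, standard error 0.43). In siMCRS1 libraries KNG1 had 21.1, 51.8 and 14.3 normalized counts in DMSO and 95.2 and 68.3 in EPZ-6438 (1.64, adjusted p = 0.248). There KNG1 was called higher by DESeq2 (1.47, adjusted p = 0.0358) and by limma without DMSO siMCRS1 2 (2.15, adjusted p = 0.0298). The 4 members called by DESeq2 in NTG libraries were KNG1 (1.96, adjusted p = 7.10e-05), F10 (0.85, adjusted p = 0.0137), SERPINF2 (0.77, adjusted p = 0.0132) and SERPIND1 (0.56, adjusted p = 0.0304). FGA, FGB and FGG had 30716, 30218 and 32076, 16555, 11784 and 14720, and 50515, 36179 and 47606 normalized counts in EPZ-6438 with NTG, above both DMSO NTG libraries for each chain (0.72, 0.85 and 0.61, adjusted p = 0.255, 0.214 and 0.294).

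In siMCRS1 libraries 1 member, HABP2, was called with EPZ-6438, where 0.0908% of all genes were called and 12 of 35 members and 1305 of 14312 genes had an unadjusted p under 0.05. HABP2 was at 8.90, 13.2 and 7.16 normalized counts in DMSO with siMCRS1 and at 115 and 71.9 in EPZ-6438 with siMCRS1 (3.14, standard error 0.41, adjusted p = 0.0298). In NTG libraries it went from 12.4 and 7.63 normalized counts in DMSO to 37.7, 19.9 and 27.3 in EPZ-6438 (1.40, adjusted p = 0.131). The drug groups did not overlap their DMSO groups. HABP2 averaged 10.0 with NTG and 9.76 with siMCRS1 in DMSO, at the filter of 10, and 28.3 and 93.5 in EPZ-6438. It thus passed the filter mainly through the EPZ-6438 groups, where it was called higher. This call is no independent support for a rise. With the siRNA HABP2 was at -0.04 in DMSO (95% interval -0.94 to 0.86) and was called in EPZ-6438 (1.70, adjusted p = 0.00494; without EPZ-6438 siMCRS1 A 1.36, adjusted p = 0.0607). The call with the drug was kept in 11 of 19 alternatives, and was lost without DMSO NTG 1, DMSO siMCRS1 1 or 3, EPZ-6438 NTG 3 or either EPZ-6438 siMCRS1 library (log2 fold changes from 2.80 to 3.47, adjusted p from 0.0510 to 0.312). The interaction, which is the difference between these effects, was 1.74 for HABP2 (95% interval 0.47 to 3.01) and not called (adjusted p = 1.00); 0% of all genes were called for it by limma and 1 of 35 members and 336 genes had an unadjusted p under 0.05, and edgeR and DESeq2 called 0 members each. HABP2 overlaps NRAP on the opposite strand. PLG and HRG had the next largest differences with EPZ-6438 in NTG libraries after KNG1 and HABP2 (1.42, adjusted p = 0.301, and 1.27, adjusted p = 0.205).

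**Figure D5:**
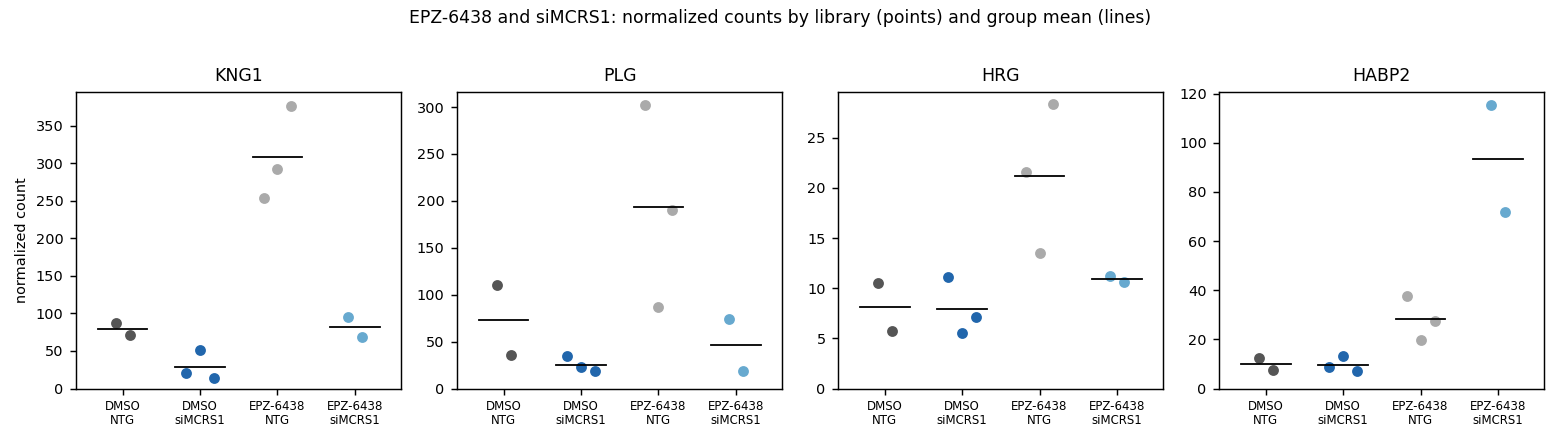
Normalized counts (y axes, from 0) of KNG1, PLG, HRG and HABP2 in each library of the siMCRS1 and EPZ-6438 experiment, with lines at group means. KNG1 is higher in all EPZ-6438 libraries than in the DMSO libraries with the same siRNA and lower with siMCRS1 in both treatments, and HABP2 is highest in the 2 EPZ-6438 siMCRS1 libraries (115 and 71.9).

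Members moved together between replicate libraries, which bears on groups of 2 or 3. DMSO NTG 1 was above DMSO NTG 3 for 30 of 35 members (85.7%, against 55.7% of all genes), EPZ-6438 siMCRS1 A was above B for 30 of 35 (85.7%, against 51.8%), DMSO siMCRS1 3 was the lowest of its group for 23 of 35 (65.7%, against 40.1%), and NTG C was the highest of its group for 27 of 34 (79.4%, against 31.6%). Without DMSO NTG 1, 9 members were called with siMCRS1 in DMSO (3 higher, 6 lower) in place of 19, and the share of all genes called fell to 32.1%. These orders were counted after the values were seen.

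Outside the 37 members, 28 other genes of clotting and fibrinolysis were counted. Of 21 tested in the INO80 experiment, 11 were called with siINO80#1 (7 higher, 4 lower) and 13 with siINO80#2 (7 higher, 6 lower), and of 22 tested in the other, 12 with siMCRS1 in DMSO (8 higher, 4 lower) and 15 in EPZ-6438 (9 higher, 6 lower). These counts are 52.4%, 61.9%, 54.5% and 68.2% of those tested, against 41.6%, 55%, 47.7% and 53.7% of all genes. F2R, the thrombin receptor PAR1, had the largest called rise with siINO80#1 (2.23), siINO80#2 (2.82) and siMCRS1 in DMSO (2.46). Its mean went from 343 normalized counts in NTG to 1601 and 2411, and from 617 in DMSO with NTG to 3381 with siMCRS1. SERPINB2, the activator inhibitor PAI-2, had the largest rise with siMCRS1 in EPZ-6438 (2.58, adjusted p = 4.99e-05) and was the 1 gene of this list called with EPZ-6438, in NTG libraries (1.83, adjusted p = 0.0320) and in siMCRS1 libraries (2.19, adjusted p = 0.0298). The SERPINB2 call with the drug was lost without DMSO NTG 1 or 3 or EPZ-6438 NTG 1 or 3 (adjusted p = 0.217, 0.201, 0.0612 and 0.140) in NTG libraries. In siMCRS1 libraries the call was lost without DMSO NTG 1, DMSO siMCRS1 3, EPZ-6438 NTG 3 or EPZ-6438 siMCRS1 A (0.0580, 0.112, 0.0602 and 0.277). The largest called falls were those of PLGRKT, a plasminogen receptor, with siINO80#1 (-0.94), of C4BPB, a chain of the protein S-binding C4b-binding protein, with siINO80#2 (-1.48) and siMCRS1 in DMSO (-1.10), and of F8, the cofactor missing in haemophilia A, with siMCRS1 in EPZ-6438 (-1.75, adjusted p = 0.0179, from 19.9 to 5.33 normalized counts). Both siMCRS1 groups averaged under 10 normalized counts for F8, so it passed the filter only through the NTG groups. The F8 call was lost without EPZ-6438 NTG 2 or 3 or EPZ-6438 siMCRS1 B (adjusted p = 0.0539, 0.0618 and 0.197). THBD, VWF, GAS6, ADAMTS13, LPA and CLEC3B were under the filter in both experiments.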

How the data were processed

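For each experiment the authors deposited a table whose values are a signal in normalized counts: the counts of 34825 gene symbols after division by a size factor of the library. Per the labels, libraries were made with a Kapa stranded mRNA kit from HepG2 RNA, and the submitters' processing notes name kallisto, DESeq2 and GRCh38; versions, annotation and the use of strand are not given in the sources used here. Dividing by the smallest step of each library gave whole reads (within 0.001 read), which rounded estimates would also give. The tables were scaled separately, so groups were compared within a table. Replicate pairs differed by more than sampling noise (chi-square per degree of freedom 9.45 to 121).

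Groups came from the sample labels. Values were fitted as log2(value + 1) with limma 3.58.1 in R 4.3.3 (eBayes, trend on, each experiment fitted whole, mean of 10 or more, Benjamini-Hochberg adjustment). This scale makes the fold changes of low genes too small. Alternatives were pseudocounts of 0.1 and 5, a minimum of 50 or none, rescaling to equal totals, quantile normalization, no trend, only the groups compared, a replicate block, edgeR 4.0.16 (quasi-likelihood) and DESeq2 1.42.0 on the recovered reads, and each library left out. Libraries with the same letter pair NTG with siINO80#1, by deviations from the group means that correlate at 0.25, 0.26 and 0.14; for siINO80#2 some pairs were under 0.1. A block by column number in the siMCRS1 experiment was added after seeing the data. The fit was tested on simulated data. The members and all lists were chosen with earlier results of these data known. Every member is accounted for by role; values in every library are given for the fibrinogen chains, F3, the 3 largest called rises and falls of each siRNA comparison with a mean of at least 50, and members called with EPZ-6438, and further members (F2, F10, F11, PROC, GGCX, KLKB1 and others) are described beside them. Lengths and overlapping genes are from GENCODE v44 on GRCh37, and gene positions and promoters from RefSeq on GRCh38.p14. Python 3.11.15, pandas 2.3.3, numpy 2.4.6 and matplotlib 3.10.9 were used.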

Additional observations from a re-analysis of the deposited data

How the results depend on the processing

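In the comparisons of an siRNA with NTG and of the INO80 siRNAs with each other, the count of called members stayed within 1.5 times under every alternative but 1. With 1 INO80 experiment library left out, 33.6% to 49.5% of all genes were called with siINO80#1, 48.8% to 55.1% with siINO80#2 and 13.9% to 24.8% between them. With siMCRS1 the shares were 39.2% to 49.2% in DMSO and 48.9% to 53.0% in EPZ-6438 where at least 2 libraries were left in each group. Leaving out 1 library at a time gave 13 to 17 members with siINO80#1, 15 to 22 with siINO80#2, 11 to 18 between them, 9 to 20 for siMCRS1 with DMSO and 15 to 22 for siMCRS1 with EPZ-6438; the 9 was without DMSO NTG 1. With EPZ-6438 in NTG libraries (0 called), a fit of only the groups compared gave 2, DESeq2 gave 4, a replicate block by column number gave 6, and leaving out libraries gave 0 to 1. With EPZ-6438 in siMCRS1 libraries (1 called), a minimum of 50, no minimum, or only the groups compared each gave 0, DESeq2 gave 2, and leaving out libraries gave 0 to 2. Where 1 library is left in an arm, that library is assumed to vary like the other groups.

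Rescaling to equal totals moved the median of all genes by -0.23 with siMCRS1, -0.11 with siINO80#2 and -0.08 with siINO80#1, and gave 22 members (4 higher, 18 lower) in DMSO, 23 (4 and 19) in EPZ-6438, 21 (3 and 18) and 15 (3 and 12). The shares of all genes called were 48.8%, 53.2%, 52.6% and 38.8% in the same order. Of 9273 alternative values of single named genes, 8911 kept their direction and side of the threshold, 230 fell short of it, 130 passed it and 2 reversed: with quantile normalization SERPINA1 was at -0.30 with siMCRS1 in DMSO (adjusted p = 0.0384) and MCFD2 at -0.15 with siMCRS1 in EPZ-6438 (adjusted p = 0.169). The causes were not tested.

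The letters A to C are shared by the groups of the INO80 experiment. Over the 9 pairs with a shared letter, deviations correlated at 0.10 on average (5 pairs over 0.1), against -0.05 for the 18 other pairs. Of 9 libraries, 8 correlated best with one of their own letter, and all 3 pairs were over 0.1 only for NTG with siINO80#1. With the replicate block 15, 22 and 16 members were called with siINO80#1, siINO80#2 and between them, against 45.1%, 57.9% and 25.6% of all genes. SERPINA5 lost its call with siINO80#1, PLAT gained one with siINO80#2, SERPIND1 and PLAT gained one between the siRNAs (adjusted p = 0.0367 and 0.0378), and no other member's call changed. In the siMCRS1 experiment the numbers in the column names, which the titles do not carry, allowed a replicate block over the 3 numbered groups, chosen after seeing the data; DMSO with NTG has 2 numbers, too few to tell whether they pair libraries. It gave 22 members with siMCRS1 in DMSO (5 higher, 17 lower, 55.9% of all genes), F5, PLG and MST1 being added to the 19, and 6 with EPZ-6438 in NTG libraries (F2, F10, F5, KNG1, PLG and SERPINF2, all higher, adjusted p from 0.0325 to 0.0498, 8.10% of all genes). No paired analysis was possible for the comparisons with EPZ-6438 siMCRS1 because its columns are lettered and the others numbered.

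Depth limits members such as HABP2, HRG, KLKB1, F12, F13B, PLG and PLAT, whose group means were under 60 normalized counts in most groups. F9 and F13A1 could not be tested.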

Other observations

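Of 10 liver transcription factors counted beside the members, 4 were called with siINO80#1 (1 higher, 3 lower), 7 with siINO80#2 (all lower), 8 with siMCRS1 in DMSO (2 higher, 6 lower) and 6 in EPZ-6438 (all lower). These counts are 40%, 70%, 80% and 60% of the 10, against 41.6%, 55%, 47.7% and 53.7% of all genes. NR1H4, the bile acid receptor FXR, fell most with siINO80, from 1548 normalized counts on average in NTG to 408 in siINO80#1 and 173 in siINO80#2 (log2 fold change -1.93 and -3.16), and was at -1.38 and -1.30 with siMCRS1 in DMSO and EPZ-6438. HNF4A, a regulator of hepatocyte genes, was at -0.45 and -1.02 with the INO80 siRNAs and -0.55 with siMCRS1 in both treatments. CEBPA fell with siINO80#2 (-1.87) and siMCRS1 (-0.64 and -0.89) and was not called with siINO80#1 (-0.23, adjusted p = 0.580). FOXA1 was called higher with siINO80#1 (0.51) and FOXA2 with siMCRS1 in DMSO (0.51). With EPZ-6438 in NTG libraries 1 of the 10, NR5A2, was called (1.42, adjusted p = 0.0298), where 0.384% of all genes were called. No relation between these factors and the members was tested.

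Genes outside the members were also called with the siRNAs. F2RL1, the receptor PAR2, rose by 1.25 and 1.77 with the INO80 siRNAs and by 1.33 and 1.89 with siMCRS1 in DMSO and EPZ-6438. TFPI2, a relative of TFPI, rose by 1.34 and 1.00 and by 1.59 and 1.79 in the same order; its siMCRS1 calls were lost in DMSO without DMSO NTG 1 (1.09, adjusted p = 0.211) or DMSO siMCRS1 2 or 3 (adjusted p = 0.0544 and 0.0709) and in EPZ-6438 without EPZ-6438 siMCRS1 B (0.87, adjusted p = 0.182). C4BPA and C4BPB, the chains of C4b-binding protein, were called lower in each of the 4 comparisons, C4BPA at -0.79, -1.15, -0.90 and -1.35; the C4BPA call with siMCRS1 in DMSO was lost without DMSO NTG 1 (-0.76, adjusted p = 0.0899) and with quantile normalization (-0.63, adjusted p = 0.0548).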
